A study of Mus musculus with 4 samples.

Results

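The RNA recovered with CstF64 from proliferating C2C12 cells was described across the mouse genome from the CLIP-seq libraries alone. Every deposited line of both replicates was a member, 1101047 distinct alignments in replicate 1 and 1352122 in replicate 2, of 2870051 lines in all 4 samples of the series. Of these, 1075974 and 1321366 lay on the 19 autosomes and the mitochondrial genome and were counted by their midpoint in fixed windows of 10 kb on each strand. The other 2 samples are 3'READS libraries of a mix of cell lines, primed with CU5T45 or a regular oligo(dT) to map poly(A) sites, and were used here only for the number of lines and a check of mitochondrial numbering. C2C12 is a mouse myoblast line. Its cells were irradiated at 254 nm, the lysate was treated with RNase T1 at 20 U/ml, and complexes of 85 to 150 kDa were recovered with a monoclonal antibody to CstF64. The samples include no untreated, mock or input library. The opposite strand was therefore the only comparison within each library. It cannot measure RNA recovered without specific binding, which would come from the transcribed strand too. Alignments were not divided by the amount of each RNA. The labels name 1 cell line and 1 growth state and give the libraries as replicates without saying that they came from separate cultures. Marker genes of myoblasts were not analysed here, because no annotation of the mm9 build of the files was used, and nuclear windows are named by position.

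CstF64 is the subunit of cleavage stimulation factor that contacts RNA, in a complex that joins the cleavage and polyadenylation machinery on pre-mRNA. It recognises U-rich and GU-rich sequence just downstream of the cleavage site. In CLIP, ultraviolet light links protein to the RNA it touches, and the RNA fragments kept after immunoprecipitation are sequenced. Each distinct alignment is counted here by its own start and end. How these relate to the ends of the RNA fragment is not stated in the sources used here.

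Only the mitochondrial genome could be read as sequence, from its annotated transcripts in GENCODE M21 (GRCm38). The most used 3'READS position lay within 2 nt of the annotated end at all 6 measured mitochondrial genes. The numbering of the 3'READS positions and of the annotation thus matched to that distance. CLIP positions were not checked in this way, so their numbering is not fixed to the single base. The 6 stretches of 50 nt with most CstF64 alignments, at least 200 nt apart, are shown 5′ to 3′ on the plus strand, with runs of 3 or more T in capitals, because they show what sequence lay under the densest mitochondrial signal.
mt-Rnr2 chrM:2133-2182: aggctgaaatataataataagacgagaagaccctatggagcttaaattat
mt-Rnr2 chrM:1322-1371: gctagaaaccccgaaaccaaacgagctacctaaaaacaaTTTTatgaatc
mt-Rnr2 chrM:1869-1918: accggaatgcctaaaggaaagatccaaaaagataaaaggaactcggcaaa
mt-Rnr1 chrM:543-592: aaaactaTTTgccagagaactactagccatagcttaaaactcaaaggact
mt-Rnr1 chrM:325-374: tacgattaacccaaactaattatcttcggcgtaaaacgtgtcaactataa
mt-Nd1 chrM:3478-3527: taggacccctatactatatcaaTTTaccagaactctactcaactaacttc

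These stretches held 291 and 329, 281 and 271, 270 and 266, 198 and 213, 121 and 132, and 111 and 128 alignments in replicates 1 and 2, in the order shown. The median of the 14581 stretches of this length with known sequence was 2 in each replicate, and 5 and 7 without those that touch an empty part of the genome described further on. Their letters were not rich in T. They held 12, 9, 5, 11, 14 and 15 T, beside a median of 14 over all stretches and also over those outside the empty part. The motif TTTT, searched on the plus strand only, was in 1 of the 6 and in 19.3% of all stretches. GTGT was in 1 of the 6 and in 3.81% of all, and TGTG, which can overlap it, in 0 of the 6 and in 2.26%. A match or its absence describes these letters only.

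Before the windows are described, the replicates have to be set side by side, because they were more alike than separate draws would be. Over 32970 windows with 20 or more alignments in both together, chi-square divided by its degrees of freedom was 0.226, where counting noise alone gives a value near 1. Counted by reads it was 0.296. The replicates therefore differed by less than the sampling noise, were counted as 1 sample, and carry no SD and no test. Their values are given singly, and their likeness is no measure of biological replication.

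Of the alignments in replicate 1, 80.6% had the same start, end and strand in replicate 2, and 65.7% of those in replicate 2 were in replicate 1. Under 40 nt these shares were 92.6% and 80.0%. The upper lengths of the libraries differ. Alignments ran from 20 to 69 nt in replicate 1 and from 20 to 57 nt in replicate 2, with medians of 35 and 36 nt, and 3.11% and 10.4% lay at the maximum. Distinct 5′ ends were shared more often than whole alignments, with 94.4% of those on the plus strand and 90.4% of those on the minus strand of replicate 1 also present in replicate 2. In the other direction the shares were 85.7% and 74.2%.

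The 5′ ends of long alignments matched by strand in different degree. For replicate 1 alignments of 20 to 29 nt, 95.7% of plus-strand and 94.9% of minus-strand alignments had their 5′ end in replicate 2. At 58 to 68 nt the shares were 88.2% and 75.3%. At 69 nt they were 74.4% and 25.2%. The plus and minus strands thus stood together at short lengths and apart at the longest.

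**Figure D1:**
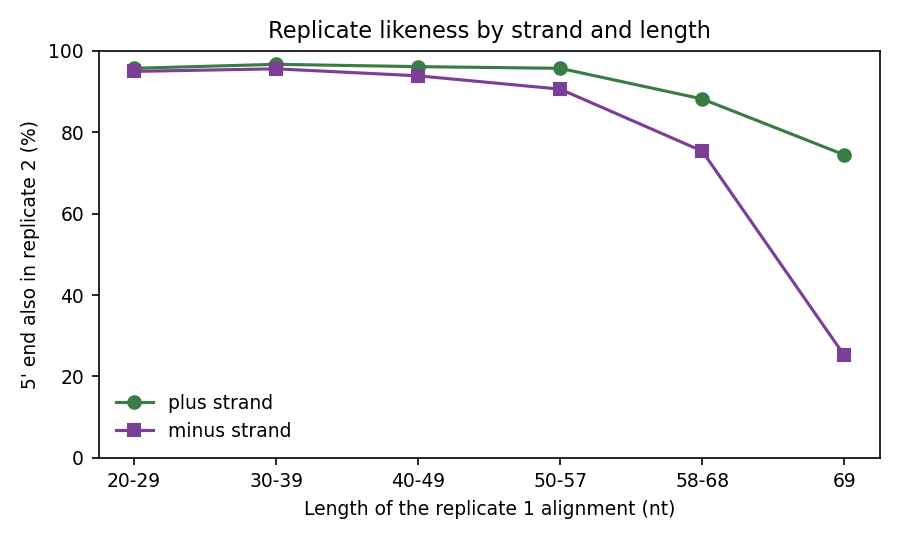
Share of replicate 1 alignments whose 5′ end was also a 5′ end in replicate 2 (y axis, percent), by alignment length in nt (x axis) and strand. Both strands sit between 94.9% and 96.7% below 40 nt, and at 69 nt the plus strand is at 74.4% and the minus strand at 25.2%.

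Across windows the replicates ranked alike. Alignments fell into 95307 windows in all, and 87704 (92.0%) were occupied in each replicate. The highest count in a window seen in 1 replicate alone was 4 alignments for replicate 1 and 14 for replicate 2. Over these windows, which are not independent and whose libraries share most alignments, log2 of alignments per 1000000 plus 1 correlated at Pearson's r = 0.972 and Spearman's rho = 0.967. The log2 ratio of the shares had an SD of 0.22 over the 32970 windows of 20 or more alignments. A 2-fold higher share in replicate 2 was found at 21 windows (0.0637%) and in replicate 1 at 2 windows (0.00607%).

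Counted by alignments, the few windows that differed were split by strand. Of the 32970 windows compared, 16274 lay on the minus strand. All 21 with the higher share in replicate 2 lay on the minus strand, and both with the higher share in replicate 1 on the plus strand. Counted by reads, 42 windows were 2-fold higher in replicate 2, of which 22 lay on the minus strand. A further 11 were higher in replicate 1, of which 6 lay on the plus strand. By reads the differing windows were thus about evenly divided between strands. Among alignments under 50 nt, 3 and 1 windows passed. The minus strand of chr17:39980001-39990000, opposite the densest window of the genome, had the largest share difference toward replicate 2 among windows of 50 or more alignments in both replicates together. It held 25 and 76 alignments, a 2.48-fold higher share, and 8.00% of them in replicate 1 and 40.8% in replicate 2 were at the maximum length.

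Of the 5 largest differences toward replicate 1, 4 were on the plus strand, and the fifth was on the minus strand of chr13:113360001-113370000, with 36 and 28 alignments. At chr7:51730001-51740000 there were 72 and 33 alignments, every one with a single read, a 2.68-fold higher share in replicate 1. They were spread over 37 and 21 of the window's 100-nt bins. At chr16:11140001-11150000 there were 44 and 23 alignments, and at chr16:17220001-17230000 39 and 25. In the last of these, 97.4% and 96.0% of the alignments lay within 100 nt, and they carried 105 and 47 reads.

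Over the genome, the same split showed in the strand totals. Plus-strand alignments made up 51.3% in replicate 1 and 50.0% in replicate 2, while plus-strand reads made up 51.8% and 51.9%. Below the maximum length the plus share of reads was 51.7% in both. At the maximum length the plus share of alignments was 48.7% and 43.3%, while that of reads was 54.2% and 52.8%. A minus-strand alignment of maximum length carried 1.05 and 1.08 reads and a plus-strand one 1.31 and 1.58. The strands were thus alike in reads between replicates, and the minus strand held more distinct long alignments for its reads. The sources used here do not say how the alignment ends in the files were set, and its part in this split was not tested.

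**Figure D2:**
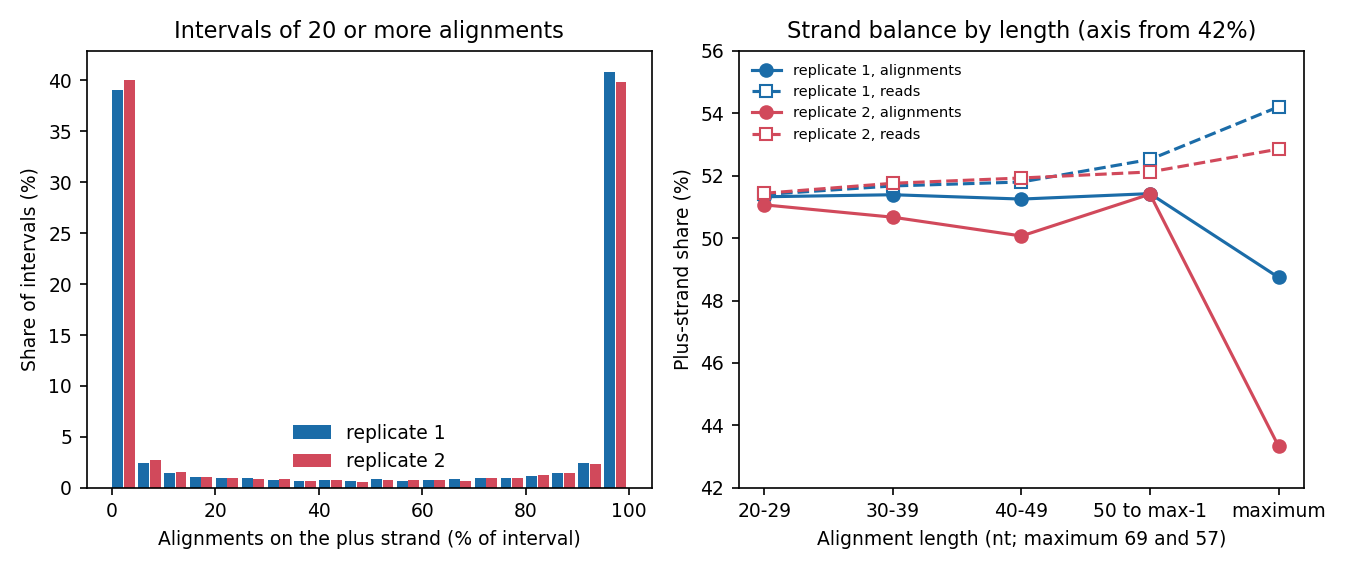
Left, share of 10 kb intervals with 20 or more alignments (y axis, percent) by the percent of their alignments on the plus strand (x axis), with 1 bar per replicate. Right, plus-strand share (y axis, from 42%) by alignment length, with filled points for alignments and open points for reads; alignments at the maximum length fall to 48.7% and 43.3%, and reads rise to 54.2% and 52.8%.

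CstF64 alignments were spread thinly over many windows, with a steep head of few dense ones. An alignment was found in 89529 and 93482 windows. Empty windows were not counted, so the measures below describe occupied windows and not the share of the genome covered. The median occupied window held 5 and 6, and 24.4% and 23.3% of the occupied windows held 1. The 99th percentile was 93 and 114 alignments, and the maximum 6065 and 6002. It took 9538 and 9626 windows to hold 50% of the alignments, which is 10.7% and 10.3% of the occupied windows.

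The dense head held a modest part of the total. The top 1% of occupied windows, 895 and 935 of them, held 13.9% and 14.0% of the alignments, and the top 10% held 48.5% and 49.3%. The 3 densest windows alone held 1.25% and 1.10%. The Gini coefficient over occupied windows, which is 0 for an even spread and nears 1 as a single window takes all, was 0.640 and 0.652. Windows with 100 or more alignments numbered 785 and 1239 and held 12.9% and 16.4% of the total.

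Reads were slightly more concentrated than alignments over the top 1% of windows and more strongly so at the very densest. The densest window held 1.52% and 1.70% of the reads, beside 0.564% and 0.454% of the alignments. On average an alignment carried 1.08 reads in replicate 1 and 1.14 in replicate 2, and 94.0% and 89.1% of alignments had 1 read. By reads, the top 1% of windows held 15.6% and 16.2%, and the 3 densest windows 2.47% and 2.67%. A single alignment reached 315 and 609 reads, and 372 and 691 alignments had 10 or more. The labels describe no molecular identifiers, so repeated reads are not counted as molecules.

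**Figure D3:**
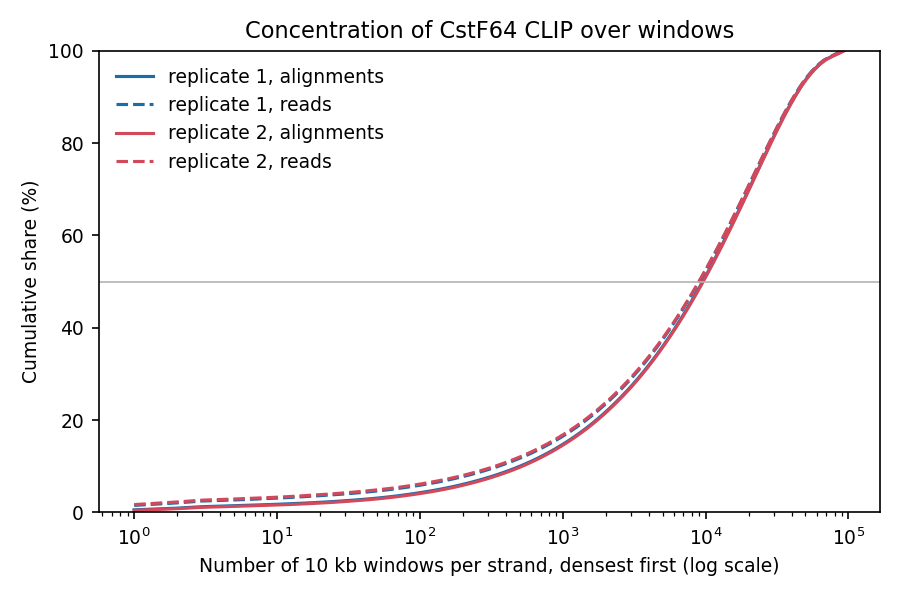
Cumulative share of the total (y axis, percent) over windows of 10 kb per strand ranked from the densest (x axis, log scale), for alignments (solid) and reads (dashed) of each replicate. The alignment curves cross 50% at 9538 and 9626 windows, and the reads start higher than the alignments at the densest window.

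The densest window of the genome was on the plus strand of chr17:39980001-39990000. It held 6065 alignments from 17622 reads in replicate 1 and 6002 alignments from 25724 reads in replicate 2. That is 5637 and 4542 per 1000000 alignments, a 1.24-fold higher share in replicate 1. The signal filled 58 and 57 of the 100 bins of 100 nt, and the densest 100 nt held 18.3% and 17.3% of it. The window stood almost alone, since the one before it held 65 and 68 alignments and the 3 after it 0. On the opposite strand lay 25 and 76. There were 2.91 and 4.29 reads per alignment. With the replicates pooled, 3.59 was the highest ratio of any window with 100 or more alignments in each replicate.

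Next came a block on the minus strand of chromosome 19. The window chr19:5790001-5800000 held 3973 and 4784 alignments and its neighbour chr19:5800001-5810000 held 1198 and 1571. The window chr19:5810001-5820000 then dropped to 28 and 34. A further 3 dense windows followed, with 435 and 540, 664 and 875, and 1013 and 1242 alignments up to position 5850000. Beyond it, chr19:5850001-5860000 held 22 and 21. Together the 5 dense windows form 2 separate groups on the same strand, and each had at most 7 alignments on the opposite strand in either replicate. The first group was the more stacked, with 1.60 and 1.81 reads per alignment in its densest window. In chr19:5800001-5810000 the alignments were held in 27 of the 100 bins in both replicates, while chr19:5830001-5840000 was covered in 81 and 84 bins and its densest 100 nt held only 7.83% and 7.66%.

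On chromosome 9, the plus strand of chr9:41390001-41400000 held 902 and 1042 alignments and that of chr9:41400001-41410000 held 536 and 575. Their shapes differed although they adjoin. The first was covered in 86 and 87 bins, the most of any window with 100 or more alignments in each replicate. In the second, 46.6% and 42.8% of the alignments lay within 100 nt, from 41400853 and 41400850.

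The other dense nuclear windows ran from 592 and 711 down to 380 and 458 alignments. The plus strand of chr15:102840001-102850000 held 592 and 711 and lay in a row of dense windows, with 367 and 431 in chr15:102820001-102830000. The plus strand of chr4:59230001-59240000 held 551 and 646, and 0 on the opposite strand in both replicates. The plus strand of chr14:66910001-66920000 held 519 and 587, of which 47.0% and 45.1% lay within 100 nt. In the plus strand of chr11:106360001-106370000, with 482 and 507 alignments, this share was highest among the 20, at 71.6% and 67.5%. The minus strand of chr11:86390001-86400000, with 451 and 560, was among the most diffuse, at 8.87% and 8.04%.

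Minus-strand windows on chromosomes 17, 15, 1 and 10 followed. The window chr17:45700001-45710000 held 420 and 534 alignments, and the 3 windows at lower positions held 0. The window chr15:77590001-77600000 held 417 and 567, chr1:180250001-180260000 held 407 and 512, and chr10:119890001-119900000 held 385 and 509. The last named lay in a row of windows with at least 117 and 146 alignments each from 119860001 to 119920000, which was followed by a window with 0. The 20th window, the plus strand of chr15:85530001-85540000, held 380 and 458. Just outside were minus-strand windows at chr5:143660001-143670000, with 369 and 465, and chr4:88550001-88560000, with 369 and 450. The step between them is small, 347 against 343 per 1000000 alignments in the lower replicate.

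**Figure D4:**
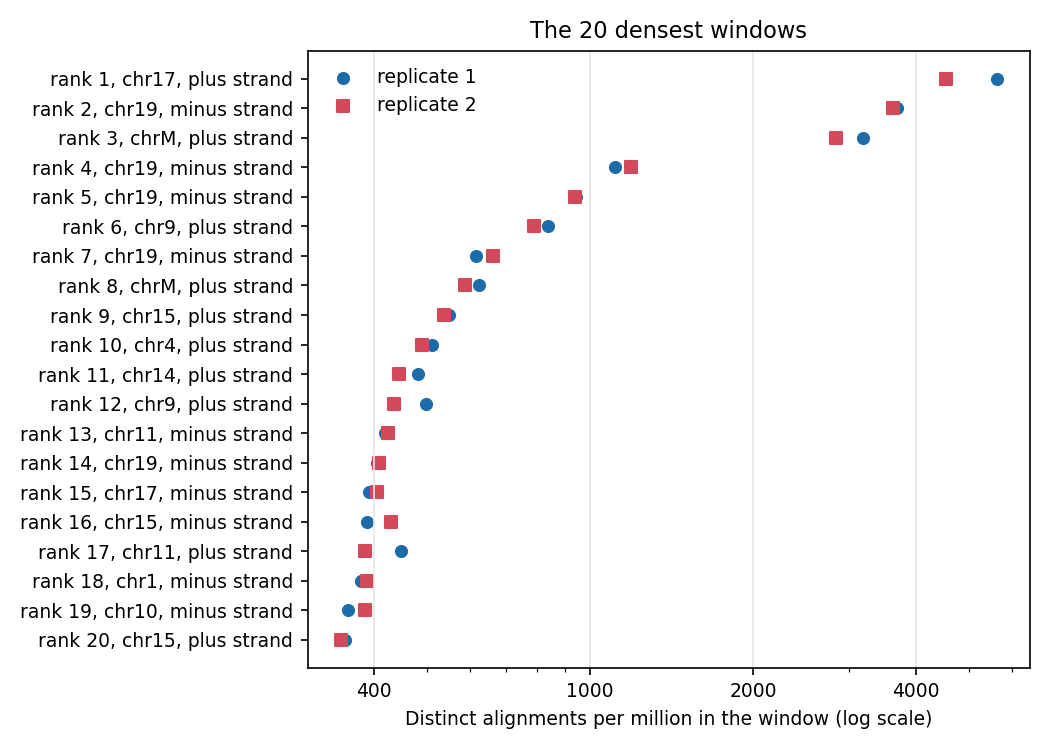
Distinct alignments per 1000000 (x axis, log scale) in the 20 densest windows (y axis, by rank, chromosome and strand), with 1 point per replicate. The replicates lie close together in each window, and the 3 densest windows stand apart from the rest at 2846 or more.

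Dense windows differed in how the signal lay inside them. Of 784 windows with 100 or more alignments in each replicate, the densest 100 nt held a median of 17.5% and 17.3% of the alignments. A window of this kind was covered in a median of 41 and 43 of its 100 bins. In 44 and 39 of them, or 5.61% and 4.97%, the densest 100 nt held 50% or more. In 70 and 77 it held less than 10%. A dense window with most of its signal in 1 narrow peak was thus the less common form.

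The windows with most reads for their alignments were chosen by that ratio, and 4 of the 5 had 50% or more of their alignments within 100 nt. Over the 784 windows, reads per alignment had a median of 1.12, and 7 windows reached 2 or more in both replicates pooled. After the chromosome 17 window came the plus strand of chr5:147070001-147080000, with 498 and 438 alignments from 1071 and 1531 reads, 64.7% and 60.05% of them within 100 nt. The plus strand of chr3:5860001-5870000 held 415 and 327 alignments in 4 and 3 bins, and a single alignment starting at 5860709 took 115 and 165 of its 997 and 1046 reads. The minus strand of chr9:78020001-78030000 held 246 and 288 alignments, and all of them lay within 100 nt in both replicates. The minus strand of chr13:97960001-97970000 held 272 and 315, with 99.3% and 99.05% within 100 nt. The median alignment length in these 4 windows was 45 to 52 nt in replicate 1, above the 35 nt of the whole replicate.

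Signal continued over neighbouring windows on the same strand. Among nuclear windows of 20 or more alignments, the next window held a median of 16 in replicate 1 and 18.5 in replicate 2. It held 20 or more in 43.3% and 48.1% of cases. On the opposite strand of the same 10 kb the median was 0, and 20 or more were found in 4.16% and 5.28%. At 10 windows further on the same strand, 13.3% and 15.6% held 20 or more. The counts themselves were weakly related between adjacent windows, with Spearman correlations of 0.198 and 0.212.

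Windows averaging 20 or more alignments formed 9240 runs of adjacent windows, which held 65.2% and 65.0% of all alignments. Most runs were short, and 5675 (61.4%) were single windows. There were 73 runs of 10 or more windows, with 5.48% and 5.52% of the alignments. The longest was 340 kb on the plus strand of chr4:57580001-57920000, with 1849 and 2194 alignments and 2 on the opposite strand in each replicate. Its windows held 19 to 228 alignments in replicate 1 and 22 to 267 in replicate 2. The next were 240 kb on the minus strand of chr11:107970001-108210000, with 1362 and 1693, and 230 kb on each of 2 stretches of chromosome 16. Of these, the minus strand of chr16:92600001-92830000 was the denser at 100.2 and 127.9 alignments per window, and the plus strand of chr16:24740001-24970000 held 39.6 and 47.7. Of 3 runs of 220 kb, the densest, on the minus strand of chr15:52960001-53180000, held 83.1 and 104.6 per window. In these 5 runs at least 99.6% of the alignments lay on the run's strand in both replicates. Of the other 2 runs of 220 kb, on the minus strand of chromosome 2, the one at chr2:60580001-60800000 had 99.9% in both replicates and the one at chr2:115680001-115900000 had 97.5% and 97.4%.

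Chromosome 15 held more alignments for its occupied windows than any other autosome. It took 6.57% and 6.62% of all alignments with 4.60% and 4.58% of the occupied windows, a mean of 17.2 and 20.4 per occupied window. The other autosomes ran from 9.76 on chromosome 7 to 14.2 on chromosome 17 in replicate 1 and from 11.4 to 16.8 in replicate 2. Without its densest window chromosome 15 was still at 17.1 and 20.2, while chromosome 17 fell from 14.2 to 12.6 in replicate 1. Chromosome 15 had 105 and 147 windows with 100 or more alignments, and chromosomes 2 and 11 followed with 61 each in replicate 1 and with 96 and 101 in replicate 2. Of its 101 bins of 1 Mb with an alignment, 16 were above the 95th percentile of all 2406 such autosomal bins in both replicates, beside 19 of 119 on chromosome 11 and 1 of 193 on chromosome 1. Its median bin, at 564.5 alignments in the mean of both replicates, was below the 678 of chromosome 11. DNA copy number and RNA level of this line were not measured, so their part was not tested. Chromosome 19 was the most concentrated autosome, with 27.7% of its alignments in its top 1% of windows in replicate 1, where the other autosomes ran from 10.8% to 21.2%.

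Most intervals with 20 or more alignments carried CstF64 signal mainly on 1 strand. An alignment on either strand was found in 77332 and 80161 intervals, and those with fewer than 20 were not assessed. Of the 15718 and 19817 intervals of 10 kb with 20 or more alignments on both strands together, 85.0% (exact 95% interval 84.4 to 85.6) and 85.2% (84.7 to 85.7) had at least 90% of them on 1 strand. In 70.2% and 69.7% every alignment lay on 1 strand. The weaker strand held 4.57% and 4.61% of the alignments of these intervals. Intervals led by the plus strand and by the minus strand were about equal in number, 7969 and 7706 in replicate 1 and 9840 and 9934 in replicate 2. The exact (Clopper-Pearson) intervals cover counting error only, and neighbouring windows are not independent.

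Intervals with balanced strands were few. Fewer than 60% on the stronger strand were found in 461 and 553 intervals, or 2.93% and 2.79%. Of these, 346 and 373 held fewer than 50 alignments, as did 11870 and 14241 of all the intervals of 20 or more. None of the 138 intervals of 200 or more alignments in replicate 1 was this even, and 2 of 242 in replicate 2 were. The share with at least 90% on 1 strand was 85.2% and 85.7% below 50 alignments. It was 83.0% and 82.8% at 50 to 99 alignments and 98.6% and 94.2% at 200 or more. Of the 190 intervals that averaged 200 or more, 186 had a mean of 90% or more on 1 strand.

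The most even of these 190 was not nuclear but the part of the mitochondrial genome from position 10001, with 78.7% and 78.0% on the plus strand. The next was chr8:87220001-87230000, with 29 and 34 plus-strand and 173 and 206 minus-strand alignments. In it the minus-strand midpoints had a median of 87228600 and 87228611 and the plus-strand ones of 87223741 and 87223798. The strands overlapped, since 90% of the midpoints lay from 87220089 to 87228598 on the plus strand and from 87223836 to 87229994 on the minus strand in replicate 1. In chr1:88250001-88260000, with 29 and 30 plus-strand and 154 and 209 minus-strand alignments, the densest places of the strands were apart. Their densest 100 nt began at 88256478 and 88256472 on the plus strand and at 88253148 in both replicates on the minus strand, where it held 55.2% and 54.1%. In chr15:27520001-27530000 the strands held 193 and 233 against 20 and 32, and the median midpoints of the plus and minus strands in replicate 1 lay close together, at 27524988 and 27524370. The fifth, chr7:52710001-52720000, had 20 and 22 plus-strand and 179 and 226 minus-strand alignments.

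Autosomes leaned to either strand. Chromosome 12 was the most plus-sided, with 61.4% and 60.04% of alignments on the plus strand, and chromosome 19 the most minus-sided, with 43.5% and 42.5%. The minus-strand block of chromosome 19 described above is part of that share, and its densest window alone held 10.1% and 9.90% of the chromosome's alignments. The strand share without the block was not computed, so this lean may not hold for the rest of chromosome 19.

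The mitochondrial genome is a small circle that encodes 2 ribosomal RNAs, 13 mRNAs and 22 tRNAs, and its mRNAs and rRNAs receive short poly(A) tails inside the organelle. CstF64 alignments on it numbered 4325 and 4808, or 0.402% (exact 95% interval 0.390 to 0.414) and 0.364% (0.354 to 0.374) of the total. They came from 5696 and 7262 reads, at 1.32 and 1.51 reads per alignment, beside 1.08 and 1.14 on autosomes. The first 10 kb of the plus strand was the third densest window of the genome, with 3438 and 3761 alignments, and the rest of the plus strand was the eighth, with 670 and 777. The minus strand held 36 and 51 in the first window and 181 and 219 in the rest. Over the whole circle 94.98% (94.3 to 95.6) and 94.4% (93.7 to 95.02) lay on the plus strand, which carries all but 9 genes.

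The ribosomal RNAs took most of the mitochondrial signal. Together mt-Rnr1 and mt-Rnr2, the small and large ribosomal RNAs, held 60.2% and 58.2% of mitochondrial alignments on their own strand. Per kb of gene, mt-Rnr2 held 1094 and 1147 alignments and mt-Rnr1 916 and 1028. The mRNA of mt-Nd1, a subunit of respiratory complex I, followed at 378 and 436 per kb. The mRNA of mt-Co1, the catalytic subunit of cytochrome c oxidase, held 192 and 227. The complex I subunits mt-Nd5, mt-Nd2 and mt-Nd4 held 183 and 197, 132 and 147, and 79.1 and 95.8. The mRNA of mt-Cytb, cytochrome b of complex III, held 163 and 207. The order of mt-Nd5 and mt-Cytb differed between replicates. The order also depends on the length used, because parts of mt-Co1 and mt-Nd4 lie in the empty part. Over their 1075 and 510 nt outside it, mt-Co1 held 276 and 327 per kb and mt-Nd4 214 and 259, which puts mt-Nd4 above mt-Nd5, mt-Cytb and mt-Nd2 instead of below them. These lengths were chosen after seeing the data. The 22 tRNA genes together held 62 and 75 midpoints, and 12 of them held 0 in both replicates, of which 5 lie wholly in the empty part and 7 are among the 17 outside it.

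**Figure D5:**
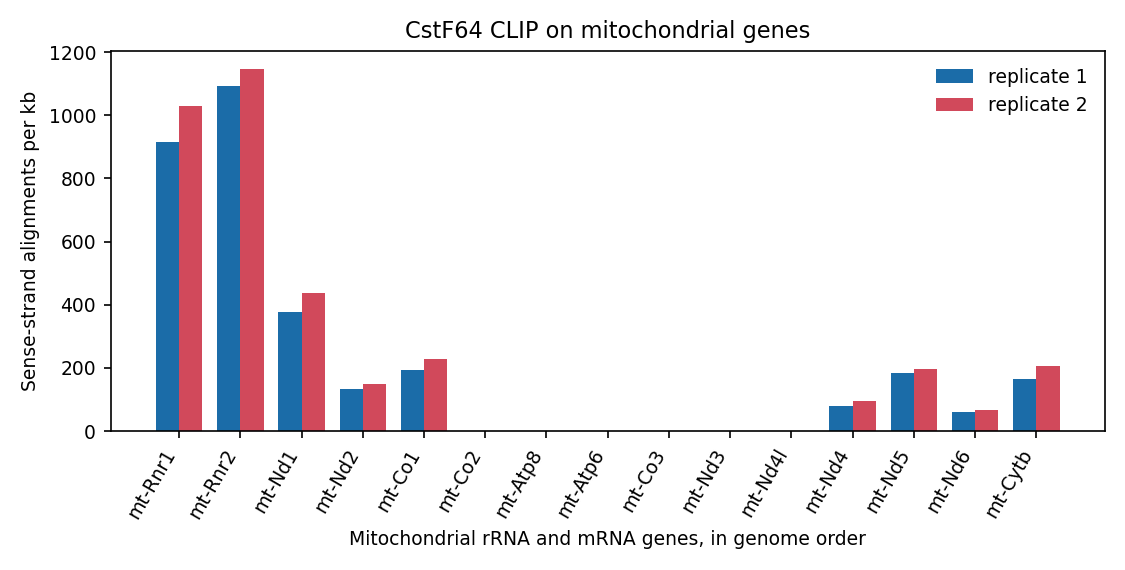
Sense-strand alignments per kb (y axis) on the 15 mitochondrial rRNA and mRNA genes in genome order (x axis), with 1 bar per replicate. The rRNA genes mt-Rnr1 and mt-Rnr2 hold 916 to 1147 per kb, and the 6 genes from mt-Co2 to mt-Nd4l are at 0. Full gene lengths are used, which include an empty part of mt-Co1 and mt-Nd4.

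A long stretch of the mitochondrial genome held no alignment. No midpoint on either strand lay from 6403 to 11034, a gap of 4632 nt with the same borders in both replicates. It covers the 3′ part of mt-Co1, the 5′ part of mt-Nd4 and 11 genes whole. These are the 6 mRNA genes mt-Co2, mt-Atp8, mt-Atp6, mt-Co3, mt-Nd3 and mt-Nd4l and the 5 tRNA genes mt-Ts1, mt-Td, mt-Tk, mt-Tg and mt-Tr. For each of these a count of 0 allows up to 3 alignments by counting error alone, or 2.79 and 2.27 per 1000000. The deposited names of the CLIP libraries begin with the word unique, which points to a filter that the sources used here do not define. Whether alignments in the gap were removed by it before deposition was not tested. If they were, this limit says nothing about binding in the gap, so the zeros are not read as absence of CstF64.

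Within genes the signal was uneven. In mt-Nd4, 42.2% and 41.7% of the sense alignments lay in the densest 50 nt, and in mt-Nd5 34.2% and 33.4%. In mt-Rnr2 the densest 50 nt, which overlaps the first sequence shown above, held 16.9% and 18.1%. On the minus strand, mt-Nd6, the only mRNA encoded there, held 31 and 35 alignments of its own strand and 30 and 32 of the other. Opposite mt-Nd5 lay 98 and 117 minus-strand alignments and opposite mt-Nd4 33 and 41, while opposite mt-Rnr2 there were 1 and 8. Minus-strand signal was thus gathered in the second part of the circle.

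The aligned mitochondrial bases held less T than the genes they came from. On the plus strand T made up 23.3% and 23.6% of aligned bases and 28.7% of the known sequence, or 28.05% of the known sequence outside the empty part. Within mt-Rnr2 it was 21.2% and 21.4% against 26.4% of the gene, and within mt-Nd4 20.2% and 19.98% against 27.8% of its part outside the empty stretch. Within mt-Co1 the values were close, 30.2% and 30.4% against 31.0% of that part. T was lower in the aligned bases of all 8 plus-strand rRNA and mRNA genes with alignments, in both replicates. Aligned bases of 1 stack are counted repeatedly, so these shares are descriptions without a test.

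The deposited start position, counted from 1, carried an A far more often than the sequence offers. Counting positions from 1, the base at the deposited start was A for 70.3% (68.8 to 71.7) and 68.98% (67.6 to 70.3) of plus-strand mitochondrial alignments, beside 34.6% A in the known plus strand and 35.1% of it outside the empty part. With each start counted once, the shares were 58.4% (55.8 to 61.1) and 58.2% (55.6 to 60.8). It ran from 61.3% in mt-Co1 to 81.8% in mt-Nd2 over the 8 genes in replicate 1. RNase T1 cuts after G. G was the base at the deposited end in 14.9% (13.8 to 16.0) and 14.5% (13.5 to 15.6), beside 12.4% G in the known sequence (12.7% outside the empty part), and the base before the start in 22.9% (21.6 to 24.2) and 22.9% (21.7 to 24.2). C was the most common base at the deposited end, at 39.7% and 36.8%, beside 24.4% in the known sequence. If the files count from 0, the base described here as the start is the one before the first aligned base, a point the files do not settle. In that case G stood before the first aligned base in only 3.56% (3.01 to 4.17) and 3.82% (3.28 to 4.42). Alignment lengths are given as end minus start, which is the length if starts count from 0, unlike the start bases given here.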

How the data were processed

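Per the labels' protocols, CstF64 complexes from UV-irradiated C2C12 cells were immunoprecipitated, RNA was recovered from a membrane, and libraries followed a small RNA kit. The submitters' processing notes name mm9, Bowtie and Novoalign without versions or roles. The deposited names of the CLIP libraries begin with the word unique, but the filter behind it is not described in the sources used here. RNA that such a filter removed would be missing from all windows, ranks and shares given here. The deposited read counts are whole numbers in the fifth column, 1 line per distinct alignment. The labels state no normalization of these counts. Totals were 1185658 and 1546401 reads. Intervals and floors of 3 counts cover counting error only.

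Alignments were assigned by midpoint to windows of 10 kb, and shares are per 1000000 alignments of each replicate, with 1 added before log2. Named windows are the 20 with most alignments in the lower replicate, 5 each with most reads per alignment, longest runs, most even strands and largest differences between replicates, and the mitochondrial windows. From the lists of 5 differing windows the text gives examples. Members, rules and lists were chosen with earlier results of these data known, and the shapes, chromosome comparison, strand by length, gap, stretches and base shares after seeing the values. Gene lists other than the mitochondrial one were not analysed here, as the annotation is of GRCm38 and coordinates were not converted. Counting functions were tested on simulated data. Tables were made with pandas 2.3.3 and numpy 2.4.6 in Python 3.11.15, intervals with scipy 1.17.1 and figures with matplotlib 3.10.9. Alternatives changed window size and start, reads for alignments, alignment end, length, thresholds, pseudocount and replicates.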

Additional observations from a re-analysis of the deposited data

Results flagged for a closer look

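Alignments outside the autosomes and the mitochondrial genome were in no comparison and lie above the 3 that a count of 0 allows. Chromosome X held 24014 alignments in replicate 1 and 29423 in replicate 2, or 2.18% of each file. Chromosome Y held 18 and 26. Sequence not placed on a chromosome held 1041 and 1307.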

How the results depend on the processing

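The number of windows that hold 50% of the alignments, 9582 as a mean of both replicates, was 15456 with 5 kb windows and 6006 with 20 kb windows, which follows from the window size. The share of the top 1% of windows, 13.9%, was 14.4% and 13.5% at these sizes, 15.9% by reads, 13.6% without the mitochondrial genome and 13.4% under 50 nt, and leaving out each replicate gave 13.9% to 14.0%. The one-strand share, 85.1%, was 87.1% with 5 kb and 82.3% with 20 kb intervals, 84.0% at 50 alignments per interval and 80.2% at 95% on 1 strand. The mitochondrial share, 0.383%, was 0.486% by reads and 0.364% to 0.402% leaving out each replicate. The replicate correlation, 0.972, was 0.892 with a pseudocount of 0.1, 0.975 at windows of 20 or more, 0.969 by reads, 0.957 and 0.980 with 5 and 20 kb windows, and 0.969 under 50 nt. Windows differing 2-fold between replicates, 0.0698% or 23 in both directions, were 0.0233% at 50 alignments, 0.153% by reads and 0.0143% under 50 nt. At 1.5-fold they were 1.64%, with 386 higher in replicate 2 and 154 in replicate 1. The mean shared part, 73.2%, was 84.1% under 50 nt, 83.6% by strand and start and 73.7% by reads. Other than for window size and threshold, the cause was not tested. For the 20 densest windows, 45 of 60 alternative values moved by less than the counting interval and 15 by more. Of these windows, 14 were among the 20 densest by reads, 20 by 5′ end and 19 under 50 nt. Dividing mt-Nd4 by its length outside the empty mitochondrial stretch, chosen after seeing the data, gave 214 and 259 alignments per kb in place of 79.1 and 95.8. No paired analysis was possible because the CLIP libraries form a single group.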
